A study of Mus musculus with 6 samples.

Results

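Macrophages are phagocytes that take up dying cells and microbes, and those of the colon sit mostly in the lamina propria and the muscle layer, outside the epithelium that lines the crypts. Their growth and survival depend on the receptor CSF1R, and the transcription factor PU.1, encoded by *Spi1*, is needed for their lineage. They recognize microbes with receptors such as CD14 and release C1q, the first component of the classical complement pathway. In the table of estimated expression in mouse colonic crypts, 10 of 18049 genes were macrophage genes, chosen by name: *Cd14*, *C1qa*, *C1qb*, *C1qc*, *Csf1r*, *Adgre1*, *Mrc1*, *Itgam*, *Cd68* and *Lyz2*. All 10 were in the table and all 10 passed the filter on low values.

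RNA came from crypts of 3 control and 3 GSK503-treated mice of the same engineered strain, 1 library per mouse. All 6 mice carried *Villin-Cre*, active in the gut epithelium, so that macrophages are not the cells this Cre targets, and a knocked-in humanized *Tgfbr2* allele with a poly(A) repeat. All were fed a Western-style diet from 8 weeks of age. The treated mice received GSK503, an inhibitor of the histone methyltransferase EZH2, by tail vein at 200 μg/kg for 9 weeks, and the controls received the captisol vehicle. The age at collection is not given in the sources used here.

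The libraries held between 108161704 and 135085241 estimated counts, so that 3 counts were worth at most 0.0271 TMM-scaled CPM, the unit of all values here (a count relative to the library size after correction by the trimmed mean of M values). Values were compared with limma on log2(value + 0.1), and each log2FC is on that scale, which understates changes of low genes. Called means an adjusted p (Benjamini-Hochberg over the 16670 genes tested) below 0.05. Epithelial markers dominated: the 6 listed (*Krt8*, *Epcam* and others) summed to between 9565 and 11670 in every library. Crypts of GSK503-treated mice 1 and 2 stood apart from the other 4 libraries in their 8 smooth muscle markers. These markers summed to 5.11 and 4.76 in mice 1 and 2, to between 22.7 and 94.1 in the controls and to 127 in GSK503-treated mouse 3. *Xist* was at most 0.936 in controls but at least 825 after GSK503, while the Y-linked *Uty* was at 42.5 or more in the controls and at most 1.08 in the treated mice. Sex and treatment therefore cannot be told apart in any comparison below. *Ezh2* itself averaged 43.6 ± 5.29 in controls against 36.0 ± 0.769 after GSK503 (SD, n = 3 each), with a limma adjusted p of 0.291. All treated mice lay below all controls for *Ezh2*, as they did for 9.22% of all genes tested. Its transcript level does not measure inhibition of the enzyme.

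All 10 macrophage genes had a negative log2FC, as had 51.1% of all genes tested, and their median log2FC was -0.59 against -0.01 over all genes. None of the 10 was called by limma (0.642% of all genes were, 0.144% lower and 0.498% higher), and by limma-voom on recovered counts none was called either. At an unadjusted p below 0.05, 2 of the 10 passed (*Cd14* and *Itgam*), where 13.3% of all genes did. The groups did not overlap for 1 gene, *Cd14* (9.22% of all genes were lower and 9.84% higher with no overlap). In most of the other 9, the crypts of GSK503-treated mice 1 and 2 and those of mouse 3 gave different pictures. Mice 1 and 2 lay below all 3 controls for 9 of the 10 genes, all but *Mrc1* (16.1% of all genes), and were the lowest pair of the 6 libraries for 8 of the 10 (9.6% of all genes). For 6 of the 10 (*C1qa*, *C1qb*, *C1qc*, *Lyz2*, *Csf1r* and *Adgre1*), mouse 3 lay at the same time above every control (2.82% of all genes). This arrangement of mice was noticed in the values, so these counts are a description. The same holds for each fit without GSK503-treated mouse 3 given below. Mouse 3 was singled out by its values, so the adjusted p and intervals of those fits are no test of treatment. Without GSK503-treated mouse 3, 2 of the 10 genes were called (*Lyz2* and *C1qb*, both lower; 1.37% of all genes were called, 0.624% lower), and the median log2FC of the 10 was -1.10. Without GSK503-treated mouse 1 or mouse 2, none of the 10 was called. In bulk RNA, a difference in macrophage number and one in transcript level per cell cannot be told apart. The share of each transcript that came from macrophages, and not from other cells of the crypts, was not tested.

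**Figure D1:**
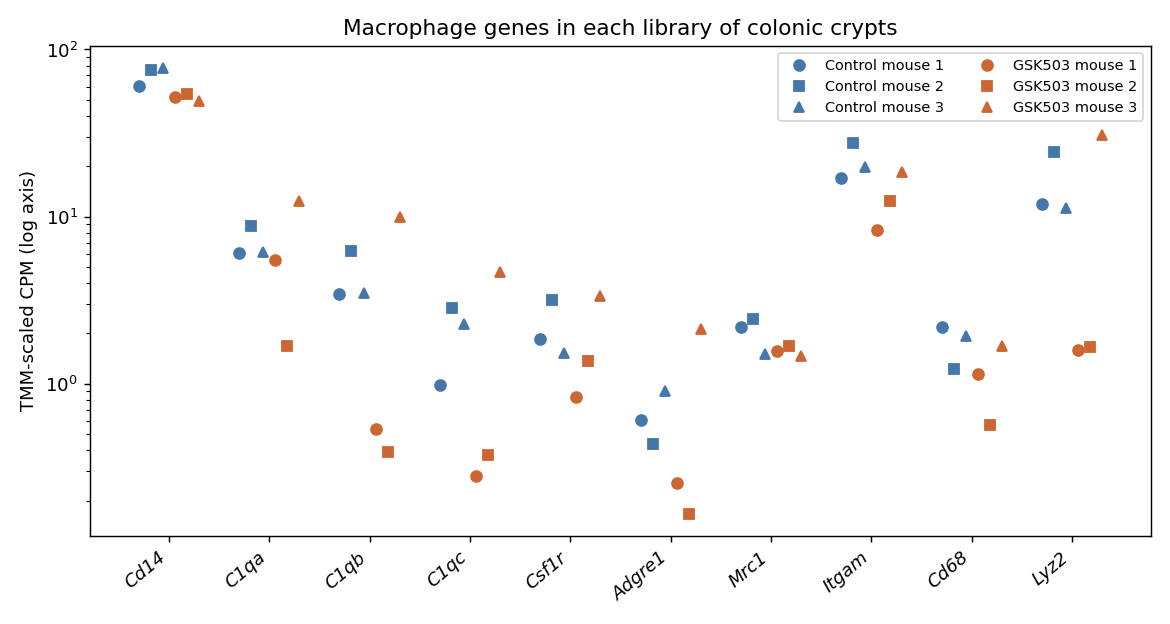
TMM-scaled CPM (log axis) of the 10 macrophage genes in each of the 6 libraries, with control mice in blue, GSK503-treated mice in orange and the marker shape giving the mouse number. For *C1qb* and *Lyz2* the orange circle and square lie far below the blue points and the orange triangle above them, whereas the 3 orange points of *Cd14* lie together just under the blue ones.

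*Cd14* encodes the surface protein that hands bacterial lipopolysaccharide to the receptor complex of TLR4 and MD-2. Its value was 60.6, 75.0 and 77.3 in controls 1, 2 and 3, against 52.1, 54.1 and 49.2 after GSK503. The groups did not overlap, with GSK503-treated mouse 3 the lowest (exact two-sided permutation test, p = 0.1, the smallest that 3 mice against 3 can give). The log2FC was -0.45 (95% CI -0.67 to -0.22, limma adjusted p = 0.0889), and without GSK503-treated mouse 3 it was -0.41 (limma adjusted p = 0.125). *Cd14* passed limma's threshold without control mouse 1 (log2FC -0.55, adjusted p = 0.029) and when values were scaled by library size alone (log2FC -0.56, adjusted p = 0.036), a scaling that shifted the median log2FC of all genes to -0.12. Its gene, ENSMUSG00000051439, lies on chromosome 18 and overlaps no other annotated gene.

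Of the 10, *Cd14* had by far the highest level per length. Per kb of its canonical transcript it reached 47.1 CPM, and its lowest library still lay above every library of the other 9 genes, which reached at most 11.4 CPM per kb. Its partners were also present at levels that did not follow the other macrophage genes. *Tlr4*, the signalling receptor, lay between 8.54 and 11.9 CPM per kb, and *Ly96*, which encodes MD-2, between 5.58 and 8.46. *Tlr4* had a log2FC of 0.04 (95% CI -0.26 to 0.34, limma adjusted p = 0.932). For *Ly96* the value was 5.92, 5.50 and 6.41 in controls 1, 2 and 3, against 5.12, 4.76 and 4.23 after GSK503, all below the controls (log2FC -0.33, limma adjusted p = 0.432). *Tlr2*, the receptor for bacterial lipoproteins, was at 34.4, 38.4 and 42.3 in controls 1, 2 and 3, against 19.6, 24.5 and 30.5 after GSK503, again without overlap (log2FC -0.64, limma adjusted p = 0.101; without GSK503-treated mouse 3, log2FC -0.80, adjusted p = 0.0276). Of the 12 genes listed for CD14 and Toll-like receptor signalling, none was called, 8 had a negative log2FC and the median log2FC was -0.04. The most abundant of them, *Irak1*, *Tlr4* and *Myd88*, overlapped between the groups. *Ly96* and *Tlr2* were the only 2 of the 12 that lay lower with no overlap, where 9.22% of all genes tested did.

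**Figure D2:**
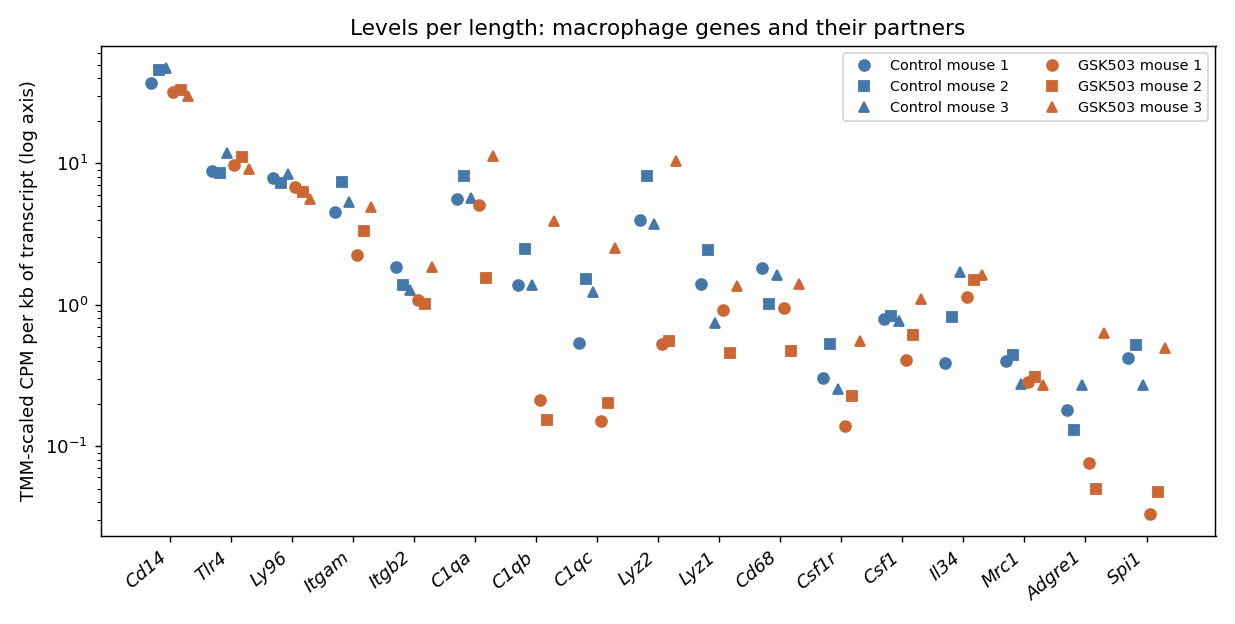
TMM-scaled CPM per kb of canonical transcript (log axis) for the macrophage genes and for partners of them, 1 point per library, control mice in blue, GSK503-treated mice in orange, marker shape giving the mouse number. *Cd14* holds a narrow range at the top. *Tlr4* and *Ly96* hold narrow ranges below it, which overlap those of *C1qa* and *Lyz2*. *Lyz2*, *C1qb*, *C1qc* and *Spi1* spread widely with GSK503-treated mice 1 and 2 at the bottom.

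*C1qa*, *C1qb* and *C1qc* encode the chains that assemble into C1q, and lie next to each other on the minus strand of chromosome 4 (GRCm39): *C1qb* (ENSMUSG00000036905) at chr4:136606009-136613511, *C1qc* (ENSMUSG00000036896) at chr4:136616466-136620376 and *C1qa* (ENSMUSG00000036887) at chr4:136623223-136626161. *C1qb* was at 3.46, 6.23 and 3.49 in controls 1, 2 and 3, against 0.534, 0.390 and 9.88 after GSK503. Mice 1 and 2 had 63 and 49 estimated counts, the lowest, and mouse 3 with 1188 had the most. The log2FC was -1.57 (95% CI -3.69 to 0.55, limma adjusted p = 0.517), and -2.96 without GSK503-treated mouse 3 (95% CI -3.73 to -2.19, limma adjusted p = 0.00818). Without GSK503-treated mouse 1 or 2 it was -0.97 or -0.78 (limma adjusted p = 0.774 and 0.875).

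*C1qc* was at 0.990, 2.83 and 2.28 in controls 1, 2 and 3, against 0.280, 0.374 and 4.67 after GSK503, with mice 1 and 2 again lowest and mouse 3 highest. Its log2FC was -1.05 (limma adjusted p = 0.64), and -2.21 without mouse 3 (limma adjusted p = 0.0618). *C1qa* was at 6.04, 8.82 and 6.18 in controls 1, 2 and 3, against 5.49, 1.68 and 12.3 after GSK503. Here GSK503-treated mouse 1 lay close under the controls instead of far below them. The ratio of *C1qa* to *C1qb* was between 1.42 and 1.77 in the controls and 1.25 in GSK503-treated mouse 3, but 10.3 and 4.31 in mice 1 and 2. The transcripts of *C1qa* and *C1qb* therefore did not keep a single ratio across the libraries, and the protein chains were not measured. The log2FC of *C1qa* was -0.49 (95% CI -1.75 to 0.77, limma adjusted p = 0.761), and it was 0.25 without GSK503-treated mouse 2. No stretch of 76 bases, the read length, in the 3 canonical transcripts occurs in a transcript of another gene. An annotated long noncoding RNA on the opposite strand overlaps *C1qb* and *C1qc* but not *C1qa*. Whether the counting used strand is not given in the sources used here, so reads of the noncoding RNA and of these genes cannot be told apart.

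The upstream sequences of the members that varied most between libraries, *C1qb*, *C1qc* and *Lyz2*, are shown beside that of *Mrc1*, which varied little. They are from RefSeq (GRCm38.p6), were matched exactly once to GRCm39, whose coordinates are given, and stop at the annotated gene. Capitals mark the core of the PU.1 motif, GAGGAA, or its reverse complement TTCCTC.
*C1qb*, minus strand, chr4:136613512-136613761: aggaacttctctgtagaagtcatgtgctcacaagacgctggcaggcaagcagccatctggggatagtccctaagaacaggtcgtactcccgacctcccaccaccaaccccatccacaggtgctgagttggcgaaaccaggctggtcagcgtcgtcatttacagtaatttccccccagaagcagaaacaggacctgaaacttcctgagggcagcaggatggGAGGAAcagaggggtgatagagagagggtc
*C1qc*, minus strand, chr4:136620377-136620475: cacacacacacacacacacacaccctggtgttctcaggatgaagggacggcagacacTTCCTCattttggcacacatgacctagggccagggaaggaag
*Lyz2*, minus strand, chr10:117118347-117118427: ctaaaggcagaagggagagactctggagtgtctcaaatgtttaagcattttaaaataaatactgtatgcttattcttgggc
*Mrc1*, plus strand, chr2:14233975-14234150: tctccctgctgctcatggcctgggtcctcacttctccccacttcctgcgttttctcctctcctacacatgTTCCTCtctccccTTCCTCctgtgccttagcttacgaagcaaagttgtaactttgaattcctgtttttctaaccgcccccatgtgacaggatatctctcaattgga

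Upstream sequences were matched for 6 of the 10 genes. Over the 250 bases before the RefSeq start, on either strand, the letters GAGGAA were found for 5 of the 6, *Cd68* and *Itgam* included, and not for *Lyz2*. Of all 32851 promoters in the table, 23.3% held them in the same window. *Mrc1* had 3 matches, *Itgam* 2, and *C1qb*, *C1qc* and *Cd68* 1 each. A match of letters is a description and not a bound site.

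*Csf1r* encodes the receptor for the growth factors CSF1 and IL-34. It was at 1.84, 3.19 and 1.54 in controls 1, 2 and 3, against 0.835, 1.36 and 3.35 after GSK503, with mouse 3 the highest of the 6 and mice 1 and 2 the lowest. The log2FC was -0.38 (95% CI -1.43 to 0.67, limma adjusted p = 0.781). It was -0.90 without GSK503-treated mouse 3 (limma adjusted p = 0.297) and 0.04 without mouse 1. The gene, ENSMUSG00000024621, lies on chromosome 18 and its end overlaps *Hmgxb3* on the opposite strand.

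Of its ligands, *Csf1* had the same arrangement and *Il34* did not. *Csf1* was at 3.32, 3.52 and 3.23 in controls 1, 2 and 3, against 1.70, 2.57 and 4.61 after GSK503 (log2FC -0.29, limma adjusted p = 0.756), with mouse 3 highest and mice 1 and 2 lowest. *Il34* was at 0.685, 1.44 and 2.98 in controls 1, 2 and 3, against 2.001, 2.61 and 2.87 after GSK503, so that mice 1 and 2 were inside the range of the controls (log2FC 0.73, limma adjusted p = 0.522). Among the lineage factors, *Spi1* was at 0.853, 1.05 and 0.551 in controls 1, 2 and 3, against 0.0678, 0.0956 and 1.01 after GSK503. Its log2FC was -1.43 (limma adjusted p = 0.409), and -2.30 without mouse 3 (limma adjusted p = 0.0446). The most abundant factors on the list were *Irf8*, *Cebpa* and *Nr1h3*, with control means of 140, 25.2 and 18.6 and log2FC between -0.17 and 0.17, each overlapping between the groups. Of these 10 ligands and factors, none was called, 5 had a negative log2FC and the median log2FC was 0.01.

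*Adgre1* encodes F4/80, the adhesion receptor used to identify mouse macrophages. The gene (ENSMUSG00000004730) lies at chr17:57665573-57790527 of GRCm39. It had the lowest level per length of the 10 genes, with values of 0.609, 0.434 and 0.905 in controls 1, 2 and 3, against 0.254, 0.167 and 2.11 after GSK503, from between 21 and 254 estimated counts. Its linear mean was higher in treated than in control mice (0.845 ± 1.10 against 0.649 ± 0.238, SD, n = 3 each) while the log2FC was -0.29 (95% CI -1.90 to 1.33, limma adjusted p = 0.907), since mouse 3 alone raised the linear mean. No direction can be given for *Adgre1*: with a pseudocount of 1 its log2FC was 0.02, and without GSK503-treated mouse 1 or 2 it was 0.09 or 0.29.

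*Mrc1* encodes the mannose receptor CD206, and lies at chr2:14234151-14336926 (ENSMUSG00000026712). It was at 2.19, 2.43 and 1.503 in controls 1, 2 and 3, against 1.56, 1.69 and 1.47 after GSK503. As for *Cd14*, GSK503-treated mouse 3 was the lowest of the 6 libraries, and the values covered a range of 0.69 on the log2 scale, against 4.35 for *C1qb* and 4.20 for *Lyz2*. The log2FC of *Mrc1* was -0.33 (95% CI -0.93 to 0.27, limma adjusted p = 0.636). Of the 10 tested scavenger and lectin receptors on the list, 9 had a negative log2FC, none was called and the median log2FC was -0.60. *Ly75* and *Mertk*, the most abundant, were lower in all treated mice than in all controls. *Mertk*, which binds apoptotic cells, was at 58.1, 52.5 and 62.0 in controls 1, 2 and 3, against 46.7, 47.2 and 43.9 after GSK503 (log2FC -0.32, limma adjusted p = 0.135). *Axl*, its relative, was at 3.45, 2.87 and 3.43 in controls 1, 2 and 3, against 0.373, 0.446 and 4.64 after GSK503 (log2FC -1.64, limma adjusted p = 0.378; without mouse 3, -2.72 and 0.00457). These relatives thus sat on both sides of the contrast between *Cd14* and *C1qb*.

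*Itgam* encodes CD11b, the alpha chain that pairs with the beta chain encoded by *Itgb2* to form complement receptor 3. The gene (ENSMUSG00000030786) lies at chr7:127661808-127717753. Its value was 17.1, 27.6 and 19.9 in controls 1, 2 and 3, against 8.37, 12.4 and 18.4 after GSK503, with mice 1 and 2 below all controls and mouse 3 inside their range. The log2FC was -0.76 (95% CI -1.36 to -0.16, limma adjusted p = 0.258), and -1.04 without mouse 3 (limma adjusted p = 0.0694). Per kb of transcript *Itgam* exceeded *Itgb2* between 2.08-fold and 5.35-fold, in 6 of 6 libraries. Of the 3669 stretches of 76 bases in the *Itgam* transcript, 90% also occur in *Gm49368*, an annotated gene on the same strand, so the counting could have split these reads and the level of *Itgam* is uncertain. *Itgb2* had a log2FC of -0.22 (limma adjusted p = 0.77). Of the 5 partner genes of *Itgam* none was called, 4 had a negative log2FC and the median log2FC was -0.22, and *Icam1* and *Fermt3* were the most abundant.

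*Cd68* and *Lyz2* encode proteins of the lysosome and its digestive work, a membrane glycoprotein and lysozyme. *Cd68* (ENSMUSG00000018774, chr11:69555037-69557067) was at 2.19, 1.22 and 1.94 in controls 1, 2 and 3, against 1.14, 0.566 and 1.69 after GSK503. Mouse 3 lay inside the control range and mice 1 and 2 below it. The log2FC was -0.69 (95% CI -1.59 to 0.21, limma adjusted p = 0.505), and -1.01 without mouse 3 (limma adjusted p = 0.259).

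*Lyz2* (ENSMUSG00000069516, chr10:117111557-117118346) was at 11.9, 24.3 and 11.2 in controls 1, 2 and 3, against 1.59, 1.65 and 30.9 after GSK503. In mouse 3 its value was 19.1 times the mean of mice 1 and 2. The log2FC was -1.72 (95% CI -3.84 to 0.39, limma adjusted p = 0.477), and -3.11 without mouse 3 (95% CI -3.83 to -2.40, limma adjusted p = 0.00449). Without GSK503-treated mouse 1 or 2 it was -1.02 or -1.04 (limma adjusted p = 0.75 and 0.832). *Lyz2* has a neighbouring copy, *Lyz1*, the lysozyme of Paneth cells, with which 2.47% of the 76-base stretches of its transcript are shared. *Lyz1* was at 1.77, 3.10 and 0.941 in controls 1, 2 and 3, against 1.17, 0.578 and 1.71 after GSK503, and the ratio of *Lyz2* to *Lyz1* ran from 1.36 in GSK503-treated mouse 1 to 18.1 in mouse 3. Both *Cd68* and *Lyz2* also overlap a noncoding RNA on the opposite strand. The profile of *Lyz2* was close to that of *C1qb*: after each gene was centred on its mean, they differed by 0.17 on the log2 scale (root mean square over the 6 libraries), where *Lyz2* and *Mrc1* differed by 1.61.

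**Figure D3:**
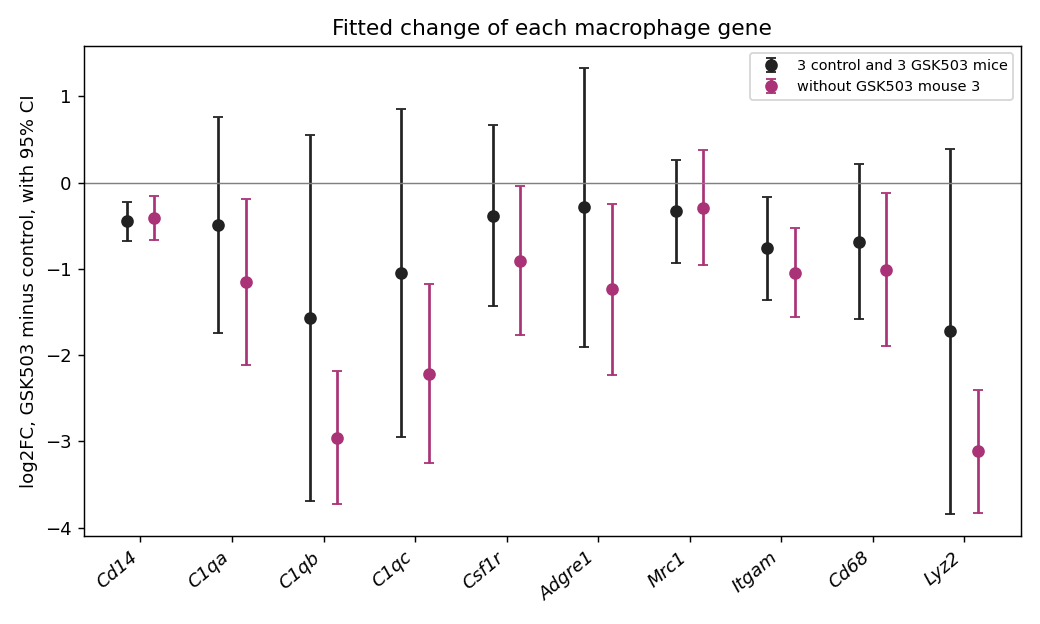
Fitted log2FC of each macrophage gene (GSK503 minus control, points) with its 95% CI (bars), in black from all 6 libraries and in purple without GSK503-treated mouse 3. The black intervals of *C1qb* and *Lyz2* span 0 and the purple ones lie below -2, while *Cd14* and *Mrc1* hardly move.

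Ordered by mean level per kb, *Cd14* came first at 37.4 CPM per kb, followed by *C1qa* (6.22), *Itgam* (4.62), *Lyz2* (4.54), *C1qb* (1.58), *Cd68* (1.22), *C1qc* (1.03), *Csf1r* (0.334), *Mrc1* (0.330) and *Adgre1* (0.223). After *Cd14*, the ranges over the 6 libraries of every gene and its neighbour in this order overlapped. Of 18 tested further macrophage markers, 16 had a negative log2FC, none was called and the median log2FC was -0.43. The most abundant of them were *Ctss* and *Lgmn*, lysosomal proteases, and *Laptm5*, a lysosomal protein of leukocytes. *Ctss* averaged 245 ± 20.3 in controls against 239 ± 35.0 after GSK503 (SD, n = 3 each), with no difference beyond the spread (log2FC -0.04, 95% CI -0.29 to 0.21, limma adjusted p = 0.918). *Laptm5* was at 7.003, 6.94 and 5.82 in controls 1, 2 and 3, against 2.98, 2.83 and 4.16 after GSK503, with no overlap (log2FC -0.98, limma adjusted p = 0.069; without mouse 3, -1.15 and 0.0277). Of these 18 markers, 9 stayed under 1 CPM in all 6 libraries, and in 2 of them a library was at 0 (*Fcgr1* and *Trem2*).

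In the complement list, 10 of 13 tested genes had a negative log2FC, none was called and the median log2FC was -0.24. The most abundant were *Cfb* and *C3*, which overlapped, and *Cd55*, which encodes an inhibitor that speeds the decay of complement convertases. *Cd55* was at 25.7, 25.6 and 26.9 in controls 1, 2 and 3, against 39.8, 48.5 and 31.3 after GSK503, all above the controls, the opposite side from *Cd14* (log2FC 0.59, limma adjusted p = 0.102; without mouse 3, 0.75 and 0.0191).

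The smooth muscle, fibroblast and endothelial lists also had GSK503-treated mice 1 and 2 lowest and mouse 3 highest on average. So did the lists of complement, scavenger and lectin receptors, CSF1R ligands and lineage factors, *Itgam* partners and neutrophils. The further macrophage markers and the monocyte genes had mice 1 and 2 lowest, but control mouse 2 highest. The lists of enteric neurons and glia, mast cells and B and plasma cells did not show this whole arrangement either. Nor did those of T cells, dendritic cells, red blood cells and CD14 and Toll-like receptor signalling. Averaged over the 10 macrophage genes as the log2 difference from each gene's mean, the libraries stood at 0.19, 0.65 and 0.32 in control mice 1, 2 and 3 and at -0.97, -1.13 and 0.93 in GSK503-treated mice 1, 2 and 3. The 18 further macrophage markers stood at 0.53 in control mouse 2 and 0.44 in GSK503-treated mouse 3, and the monocyte genes at 0.55 and 0.42. The 8 smooth muscle markers stood at -0.24, 1.84 and 0.997 in the controls and at -2.32, -2.57 and 2.30 in the treated mice. All 8 had mice 1 and 2 as the lowest pair and mouse 3 as the highest library, and 1 defining marker was at 0 in a library (*Lmod1*, mouse 2). Fibroblast markers stood at -1.19, -0.93 and 1.22 in the treated mice, and their sum, mostly *Gsn*, lay between 218 and 276 in the controls and 268 and 395 in the treated mice. The 6 endothelial markers summed to between 10.4 and 12.6 in the controls and 11.8 and 20.4 in the treated mice, with average profiles of -0.87, -0.98 and 1.03 in the treated mice. Most of the sums of mice 1 and 2 (13.9 and 11.8) was *Vwf*, at 12.1 and 9.74. All treated mice lay above all controls for *Vwf* (log2FC 0.87, limma adjusted p = 0.0505). The 7 B and plasma cell markers summed to between 22.7 and 76.5 in the controls and to 3.66, 1.95 and 62.7 in the treated mice, with 2 markers at 0 in some library. Most of the sum in mouse 3 was *Jchain*, the joining chain of secreted antibodies, at 57.9. *Cd79b*, part of the B cell receptor, was at 0.333 in mouse 3, below all controls. The average of this list was 0.95, 2.35 and 0.06 in the controls, with -1.34, -2.11 and 0.10 in the treated mice, so that mouse 3 lay below controls 1 and 2. Enteric neuron and glia markers were lowest in control mouse 1 (-0.76) and mast cell markers in control mouse 2 (-0.44). The average of the epithelial markers ran only from -0.09 to 0.16. The part that carried-over muscle, stroma or lymphoid tissue had in the macrophage values was not tested.

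**Figure D4:**
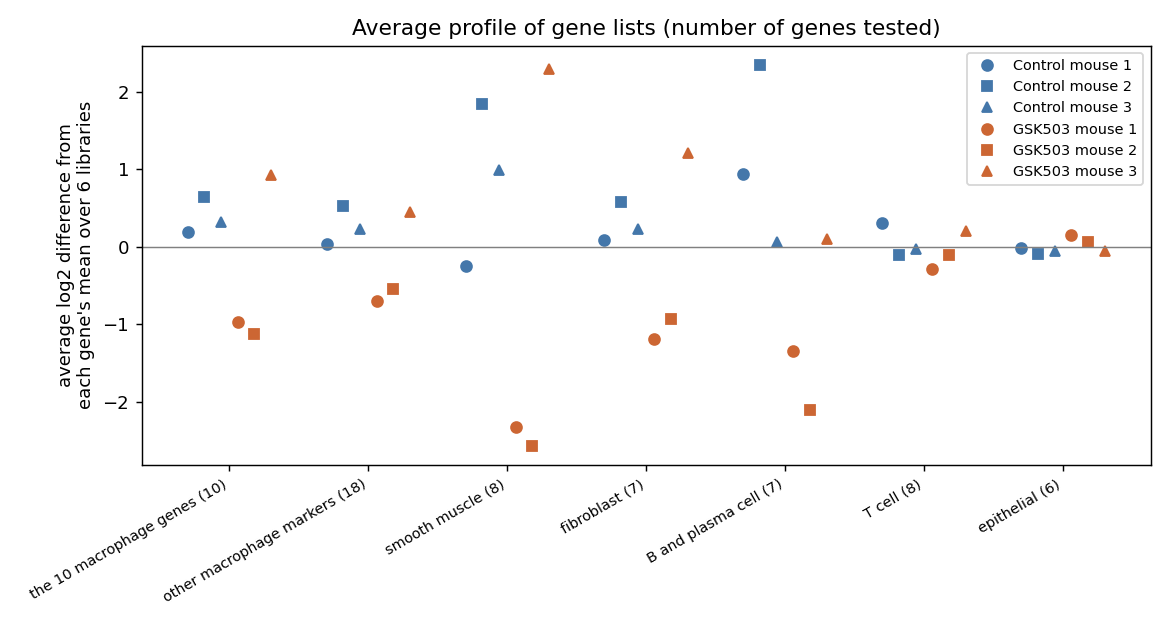
Average over each gene list of the log2 difference from the gene's mean over the 6 libraries, 1 point per library, control mice in blue, GSK503-treated mice in orange, marker shape giving the mouse number, and the number of genes tested in parentheses. GSK503-treated mice 1 and 2 lie at the bottom and mouse 3 at the top for the 10 macrophage genes and for the smooth muscle and fibroblast lists, whereas the epithelial points lie between -0.09 and 0.16. For the other macrophage markers the top point is control mouse 2.

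Of the 12788 other genes with a mean of at least 1 CPM, the 10 whose centred profile was most like the average of the macrophage genes differed from it by between 0.12 and 0.22 on the log2 scale (root mean square over 6 libraries), where a flat profile would differ by 0.78. *Mpeg1*, which encodes perforin-2, a pore-forming protein of phagocytes, was the closest. It was at 2.85, 4.57 and 3.10 in controls 1, 2 and 3, against 1.46, 1.01 and 4.71 after GSK503 (log2FC -0.80, limma adjusted p = 0.514). The collagen genes *Col4a2*, *Col1a1* and *Col1a2* were among the 10, as were *Mustn1*, *Cp*, *Syt13*, *Dkk3*, *Htra1* and *Gbp8*. None of the 10 was called in the comparison of all 6 libraries. They were picked by their values in these same libraries, so no fit of them, with or without GSK503-treated mouse 3, is a test.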

How the data were processed

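Total RNA-Seq of colonic crypts was compared between 3 control and 3 GSK503-treated mice, grouped and numbered by the sample labels. Reads had been aligned by the authors with STAR (v2.7.9a) to GRCm39 and quantified with RSEM (v1.3.1), and the deposited signal is CPM after TMM scaling in edgeR. The worth of 1 count was recovered from the step between low values. Of the values below 2, between 83.4% and 85.5% were whole multiples (tolerance 0.02), so totals are estimates. These are not counts, so limma (3.58.1, R 4.3.3) with an intensity trend tested log2(value + 0.1) in the 16670 genes with at least 0.1 in at least 3 libraries (1379 left out). The fit was also run on simulated counts with the same spread for every gene and no deviating mouse. That run checks the code and does not bear on genes such as *Lyz2*, where the treated mice differed widely.

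The members and lists were chosen with earlier results of these data known. All 10 members are named. Of each other list, up to 3 of the most abundant genes are named, along with the 10 genes most like the members. *Spi1*, *Csf1*, *Il34*, *Ly96*, *Tlr2*, *Fcgr1*, *Trem2* and *Lmod1* were named after their values were seen. Genes were located with GENCODE (GRCm39), and lengths are those of canonical transcripts. Alternatives were other scalings, pseudocounts and filters, no trend, limma-voom on recovered counts, a replicate block and leaving out each library. Figures were drawn with matplotlib (3.10.9), and scipy (1.17.1) gave the t quantiles of the confidence intervals. Exact tests went through every split of the mice into equal groups, in Python 3.11.15. *Gm49368* was not analysed here, and part of the genotype that both groups share is not reported here.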

Additional observations from a re-analysis of the deposited data

How the results depend on the processing

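Of 149 log2FC of single macrophage genes under 15 alternatives, 140 kept their direction and their side of the threshold. *Adgre1* turned to 0.02 with a pseudocount of 1. With 1 library left out, its log2FC ran from -1.24 to 0.29, that of *Csf1r* from -0.90 to 0.04 and that of *C1qa* from -1.15 to 0.25. Library size alone gave 260 called genes, 1 of them a macrophage gene (*Cd14*), in place of 107 and 0. Fitting without the intensity trend gave 16 called genes. With 1 library left out, between 30 (without GSK503-treated mouse 2) and 229 genes (without GSK503-treated mouse 3) were called, with 47, 60 and 65 without control mouse 2, control mouse 3 and GSK503-treated mouse 1. Between 0 and 2 macrophage genes were called, and between 1 and 9 were lower with no overlap. The replicate block, a pairing by replicate number, gave 33 called genes and no called macrophage gene. The sample labels give no pairing of the mice. Same-numbered mice had deviations correlated at 0.032, -0.126 and -0.119, and differently numbered mice at between -0.175 and 0.224. With so few mice these correlations cannot decide whether the mice were paired. The cause of the differences between the alternatives was not tested. The median log2FC of the macrophage genes lay between -1.10 and -0.42 over all alternatives. Depth limits *Adgre1* most, at 21 estimated counts in GSK503-treated mouse 2.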

Other observations

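Lists of other leukocytes gave the following values, with no gene called in any of them. Of 5 tested monocyte genes, 4 had a negative log2FC, and the median log2FC was -0.81. The monocyte sum was carried by *Plac8*, at 408 ± 23.9 in controls against 456 ± 32.4 after GSK503 (SD, n = 3 each), a gene whose 3 treated mice lay above the controls (limma adjusted p = 0.465). Among 8 T cell genes, 6 had a negative log2FC, with a median log2FC of -0.14. Neutrophil genes had a median log2FC of -0.15 over 3 tested genes, dendritic cell genes 0.40 over 5, and mast cell genes -0.65 over 4. Red blood cell genes had a median of -1.09 over 4 genes, and enteric neuron and glia genes 0.31 over 6.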
